A study of Mus musculus with 12 samples.

Results

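The genes described here encode the proteins of the cytosolic ribosome, the large subunit proteins (Rpl and Rplp symbols) and the small subunit proteins (Rps symbols and Rpsa). The symbol rule took 84 protein-coding mouse genes, near-copies that are active in particular tissues included. Of these, 71 had counts, among 13405 genes with counts in the whole table, and 70 of the 11542 genes tested were ribosomal protein genes. Counts were those of 3′ end sites on the strand of the gene, in the gene or up to 200 bp past its end, outside repeats or at the annotated 3′ end, summed per gene.

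The 12 libraries came from mice that carry Adv-Cre and the Ribotag allele. Cre under the advillin promoter, active in sensory neurons, switches the Rpl22 gene to a form that encodes RPL22 with an HA tag, so tagged ribosomes and the RNA on them can be precipitated with an antibody. In every mouse the sciatic nerve of 1 side was crushed, and lumbar dorsal root ganglia (levels 4 to 6), which hold the cell bodies of sensory neurons, were taken 3 days later from the injured and the naive side. Each replicate is a pool of ganglia from 4 mice, and RNA was taken from the homogenate (input) and from the precipitate (IP). Naive and injured IP, with naive and injured input, make 4 groups of 3 libraries. All of them carry Cre and the tag, naive ganglia come from mice with a crushed nerve, and age, sex and strain were not given in the sources used here.

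Ribosomal proteins are made in near-equal amounts and assembled with ribosomal RNA in the nucleolus. Most of their mRNAs start with a C followed by an unbroken run of pyrimidines, the terminal oligopyrimidine tract, through which mTOR signalling and the RNA-binding protein LARP1 set their translation. In sensory neurons, mRNAs of ribosomal proteins are also found in axons. In bulk RNA such as this, fewer cells of a type and less RNA per cell cannot be told apart.

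The annotated starts of 6 genes on which the results turn are as follows, from 40 bases before to 20 bases after the annotated start, 5′ to 3′ on the strand of the gene (RefSeq, GRCm38.p6). Capitals mark an unbroken run of at least 5 pyrimidines, C or T, that covers the start base. Rps27, Rps12 and Rplp0 were among the genes furthest below input in IP, Rpl35 and Rps26 had low adjusted p values after injury, and Rps6 encodes the protein phosphorylated by the S6 kinases of the mTOR pathway.
Rps27 (chr3:90213629-90213688, minus strand): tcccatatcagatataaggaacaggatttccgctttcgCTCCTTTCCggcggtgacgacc
Rps12 (chr10:23787190-23787249, minus strand): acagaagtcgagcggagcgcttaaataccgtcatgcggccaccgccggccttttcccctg
Rplp0 (chr5:115559427-115559486, plus strand): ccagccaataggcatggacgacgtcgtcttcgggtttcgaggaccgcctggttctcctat
Rpl35 (chr2:39005112-39005171, minus strand): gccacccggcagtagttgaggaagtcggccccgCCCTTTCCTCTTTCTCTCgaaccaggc
Rps26 (chr10:128626487-128626546, minus strand): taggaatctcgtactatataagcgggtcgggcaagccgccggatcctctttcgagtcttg
Rps6 (chr4:86857348-86857407, minus strand): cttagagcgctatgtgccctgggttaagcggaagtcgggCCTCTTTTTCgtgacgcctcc
The run covered the annotated start in Rps27, Rpl35 and Rps6 but not in Rps12, Rplp0 and Rps26. In Rps12, Rplp0 and Rps26 a run of at least 5 pyrimidines lies after the annotated start base, which the rule does not count. How exact the annotated starts are was not tested, so a gene without a marked run need not lack the tract. Of the 84 genes, 64 had a start window in the reference table. A run of at least 5 pyrimidines covered the annotated start in 21 of the 64 (32.8%), against 11.8% of all 27025 genes of that table. The letters CTTTCC, searched on the strand of the gene from 50 bases before to 50 after the start, were present in 19 of the 64 (29.7%) and in 5.43% of all genes. The 17 tested genes with a run over the start had a median log2 difference of -0.46 between IP and input in naive ganglia, with 6 past the threshold. The 34 without had a median of -0.35, with 10 past it. The letters CTTTCC split the genes the other way, with a median of -0.29 and 4 past the threshold for 17 genes with them and a median of -0.41 and 12 past it for 34 without. Neither split was tested.

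Together the 71 genes held 3598774 counts, and their single totals ran from 16 (Rpl3l, the muscle paralogue of Rpl3, not tested) to 205205 (Rps29). At their 3′ ends, 52 genes had 1 site and 19 had more. The site with most counts lay within 100 bp of the annotated 3′ end in 50 genes and further upstream in 21. A total under 5000 counts was found in 9 genes, among them Rpl12, Rpl21, Rps19 and Rps25, and near-identical processed copies of these genes elsewhere in the genome make such low totals uncertain. Not analysed here were 13 genes with no site on their strand. Of these, 10 (Rpl10, Rpl19, Rpl23, Rpl34, Rpl37, Rpl39l, Rpl7a, Rpl7l1, Rplp2 and Rps4x) lie in stretches of 3.77 to 36.2 Mb in which the table as used here has no row on that strand. Rpl36 had no resolved strand, and Rpl10l and Rpl32l had rows nearby but none on the gene.

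Before any test, the libraries of IP held less ribosomal protein RNA than those of input. Summed over the 71 genes, the share of the counts of genes was 2.21%, 2.24% and 2.25% in IP naive libraries 1 to 3 (2.23% ± 0.023, SD, n = 3) and 2.46%, 2.58% and 2.51% in IP injured libraries (2.52% ± 0.058). Input naive libraries held 3.01%, 3.20% and 3.69% (3.30% ± 0.35) and input injured libraries 3.40%, 3.57% and 4.09% (3.69% ± 0.36). All 6 input libraries were above all 6 IP libraries. Naive and injured pools of 1 replicate number were taken to come from the same mice. The injured library was higher in every such pair, by 0.25, 0.34 and 0.26 percentage points in IP and by 0.39, 0.37 and 0.40 in input. Unpaired, the naive and injured libraries were apart in IP and overlapped in input. The smallest two-sided p of an exact permutation test is 0.25 for 3 pairs and 0.1 for 3 against 3 libraries, so these shares are given without a test. The share of library counts in rRNA repeats was lower in the injured library of all 6 pairs, from 12.1%, 10.2% and 15.1% to 9.85%, 8.21% and 12.2% in IP and from 11.5%, 10.2% and 12.7% to 8.26%, 9.02% and 11.0% in input. Its part in the injury comparisons was not tested. Input replicate 3 stood apart: it was the highest library of its group for 51 of the 70 tested genes in naive and for 61 in injured ganglia. The same count over all tested genes is not given here, so this is not read as particular to the ribosomal protein genes. Results that rest on input are also given without it.

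**Figure D1:**
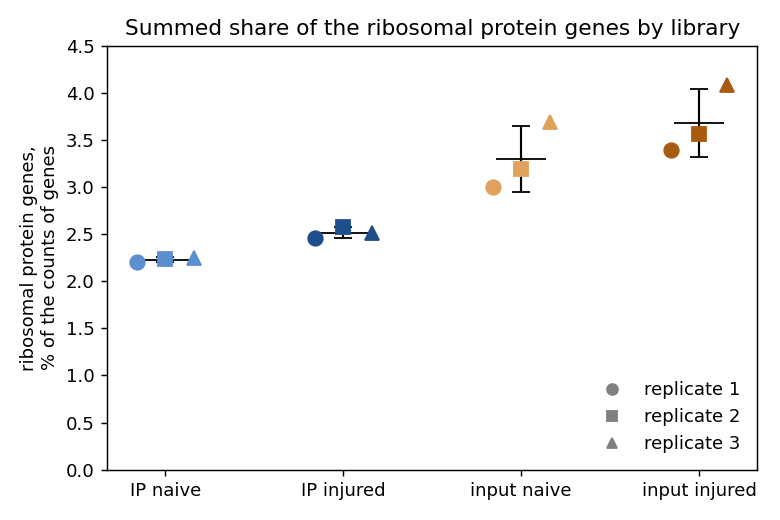
Summed counts of the 71 ribosomal protein genes as a percent of the counts of all genes (y axis) in each of the 12 libraries, by group (x axis). Symbols are libraries, by replicate, horizontal bars are group means and error bars SD over 3 libraries. The 6 IP libraries sit between 2.21% and 2.58%, below the 6 input libraries at 3.01% to 4.09%.

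Total counts per library were 10045178 to 18687123, of which 65.8% to 79.8% fell in genes. Atf3, which encodes a transcription factor that nerve injury induces, was at 3.89 to 11.6 CPM (counts of a gene set to a common total of gene counts with TMM factors) in IP naive and 308 to 417 in IP injured libraries. The 16 tested sensory neuron markers had a median log2 difference of 0.23 between IP and input in naive ganglia, with 2 higher and 0 lower. Markers of other cells were lower in IP, with 7 of 7 for satellite glia (median -2.79, summed CPM 587 to 788 in IP naive and 2511 to 2816 in input naive libraries), 7 of 7 for Schwann cells (-3.13), 5 of 6 for macrophages (-3.44, summed CPM 18.2 to 37.1 in IP naive and 209 to 296 in input naive libraries), 5 of 6 for fibroblasts (-3.27), 5 of 8 for vessels (-1.71) and 3 of 3 for erythroid cells (-3.22).

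Rpl22 (chromosome 4, 152324436 to 152334082, GRCm38) encodes the protein that carries the tag. CPM were 243, 201 and 230.0 in IP naive, 254, 245 and 221 in IP injured, 238, 265 and 316 in input naive and 254, 247 and 297 in input injured libraries 1 to 3. IP and input libraries overlapped in naive and in injured ganglia, as did naive and injured libraries within IP and within input. Its log2 difference between IP and input was -0.28 ± 0.15 in naive (adjusted p = 0.308) and -0.15 ± 0.15 in injured ganglia (adjusted p = 0.699, edgeR quasi-likelihood test). A count at the 3′ end does not show whether a transcript carries the tag. Rpl22l1, which encodes the paralogue RPL22L1, was at 372, 515 and 358 in IP naive and 511, 519 and 713 in input naive libraries (log2 -0.49 ± 0.17, adjusted p = 0.1, and 0.102 in injured ganglia). With the replicate number as a block the adjusted p of Rpl22l1 was 0.0383 and 0.0363.

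**Figure D2:**
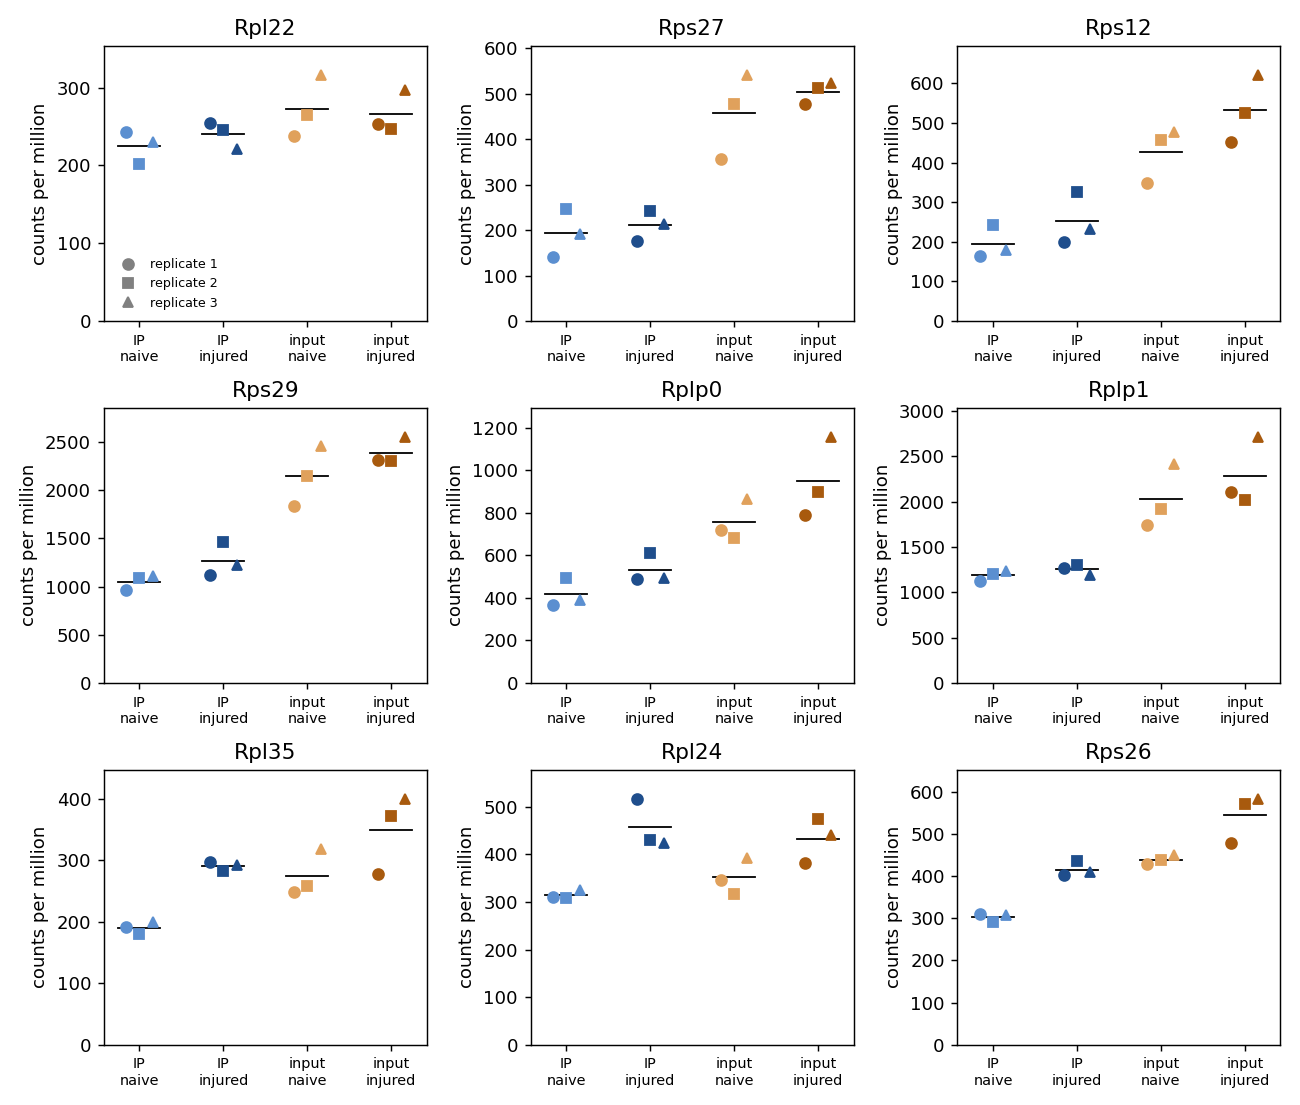
CPM (y axis, from 0) of 9 ribosomal protein genes in the 12 libraries, by group (x axis). Symbols are libraries, by replicate, and bars are group means. For Rps27, Rps12, Rps29, Rplp0 and Rplp1 all IP libraries lie below all input libraries, whereas IP and input of Rpl22 overlap in naive and in injured ganglia.

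The first comparison asks which ribosomal protein mRNAs are under-represented on the ribosomes of sensory neurons relative to the whole ganglion. In naive ganglia 27 of the 70 tested genes were lower in IP and 0 were higher, where 5.03% of all tested genes were lower and 1.8% higher (adjusted p under 0.05, edgeR quasi-likelihood test, Benjamini-Hochberg over all genes). The median over the 70 was -0.41 on the log2 scale, 1.33-fold lower, against -0.03 over all tested genes, and 66 of the 70 were below 0, as were 52.1% of all tested genes. All 3 IP libraries lay below all 3 input libraries for 40 of the 70, where 14.2% of all tested genes did so. Without replicate 3 of input, 20 genes were lower, 64 of 70 were below 0 and the median was -0.31. With 1 library left out the count was 16 without IP naive 3 and 17 without input naive 3. Shares over all tested genes in these smaller fits are not given here, so the lower counts are not read as particular to these genes. Markers of glia, macrophages and connective tissue were lower over the same libraries, as given above, and their part in the difference of the ribosomal protein genes was not tested.

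The differences furthest below 0 were those of Rps27, Rps12 and Rps29, all of the small subunit. Rps27 (chromosome 3, 90212667 to 90213648), whose protein holds a zinc finger, was at CPM of 140.0, 247 and 191 in IP naive and 357, 477 and 540.2 in input naive libraries, so every IP library lay below every input library. The log2 difference was -1.25 ± 0.19 in naive (adjusted p = 0.000278) and -1.26 ± 0.19 in injured ganglia (adjusted p = 0.000293). Rps12 (chromosome 10, 23785183 to 23787383), whose protein sits in the head of the small subunit, was at 164, 243 and 179.7 in IP naive and 347, 457 and 478 in input naive libraries (log2 -1.13 ± 0.19, adjusted p = 0.00087). In injured ganglia it was at 200.3, 327 and 233 in IP and 451, 525 and 619.8 in input (log2 -1.07 ± 0.19, adjusted p = 0.00168). Rps29 (chromosome 12, 69157722 to 69159186) had the highest mean of all ribosomal protein genes, 1715 CPM over the 12 libraries. It was at 961, 1087 and 1108 in IP naive and 1837, 2152 and 2463 in input naive libraries (log2 -1.03 ± 0.12, adjusted p = 2.1e-05), without overlap in injured ganglia either (log2 -0.91 ± 0.12, adjusted p = 8.6e-05). Rps21, with the lowest CPM of the 5 genes furthest below input, was at 49.3, 48.6 and 53 in IP naive and 73, 97.3 and 105 in input naive libraries. Its groups did not overlap (log2 -0.87 ± 0.24, adjusted p = 0.0309), but the call was lost without IP naive 1, 2 or 3, input naive 2 or input naive 3, with adjusted p up to 0.107. It was not past the threshold in injured ganglia (-0.59 ± 0.24, adjusted p = 0.172).

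Among the large subunit genes, the stalk that recruits translation factors is built of RPLP0, RPLP1 and RPLP2. Rplp0 (chromosome 5, 115559467 to 115563729) was at 367, 492 and 389 in IP naive and 717, 679 and 867 in input naive libraries (log2 -0.86 ± 0.16, adjusted p = 0.00173). In injured ganglia it was at 489.9, 612 and 493 in IP and 792, 897 and 1155 in input (log2 -0.83 ± 0.16, adjusted p = 0.00245). Only 1.49% of its counts lay at its annotated 3′ end, and at that site alone the log2 difference was -0.61 in naive and -1.14 in injured ganglia, not past the threshold (adjusted p = 0.633 and 0.31). Rplp1 (chromosome 9, 61913283 to 61914510) was at 1124, 1199 and 1235 in IP naive and 1746, 1921 and 2414 in input naive libraries (log2 -0.77 ± 0.13, adjusted p = 0.000626), and in injured ganglia its difference was -0.86 ± 0.13, adjusted p = 0.000245. Rpl39, which encodes a small protein lining the exit tunnel, was at 399, 541 and 388 in IP naive and 746, 761 and 996 in input naive libraries (log2 -0.92 ± 0.15, adjusted p = 0.00063). In each of Rplp0, Rplp1 and Rpl39 the lowest input library was above the highest IP library.

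Other genes fixed for description were closer to input. Rpsa, whose protein is also known as the laminin receptor, was at 228, 222 and 228 in IP naive and 321, 336 and 389 in input naive libraries (log2 -0.63 ± 0.14, adjusted p = 0.0103). In injured ganglia its call was lost without IP injured 1, IP injured 2 or input injured 3 (adjusted p up to 0.0651). Rps6 was at 316, 389 and 267 in IP naive and 378, 493 and 483 in input naive libraries, which overlap, and was not past the threshold in naive (-0.48 ± 0.16, adjusted p = 0.0845) or injured ganglia (-0.51 ± 0.16, adjusted p = 0.0733). With the replicate block its adjusted p was 0.0198 and 0.0138. Of the 5 genes with the highest mean, Rps14 was lower in IP naive libraries (714, 777 and 807) than in input naive (1153, 1139.8 and 1464; log2 -0.71 ± 0.13, adjusted p = 0.00137). Rps23 was at 1176, 1268 and 1284 in IP naive and 1333, 1391 and 1539 in input naive libraries, which do not overlap (log2 -0.19 ± 0.12, adjusted p = 0.399). Rpl27a was at 977, 760.3 and 892 and 1006, 866 and 1205, which overlap (log2 -0.23 ± 0.14, adjusted p = 0.404). Rps27l, the p53-induced paralogue of Rps27, was at 48.6, 66.8 and 72.3 in IP naive and 70.2, 75.4 and 73.7 in input naive libraries. Its difference was -0.23 ± 0.23, adjusted p = 0.655, beside -1.25 for Rps27, and the difference between the paralogues was not tested.

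**Figure D3:**
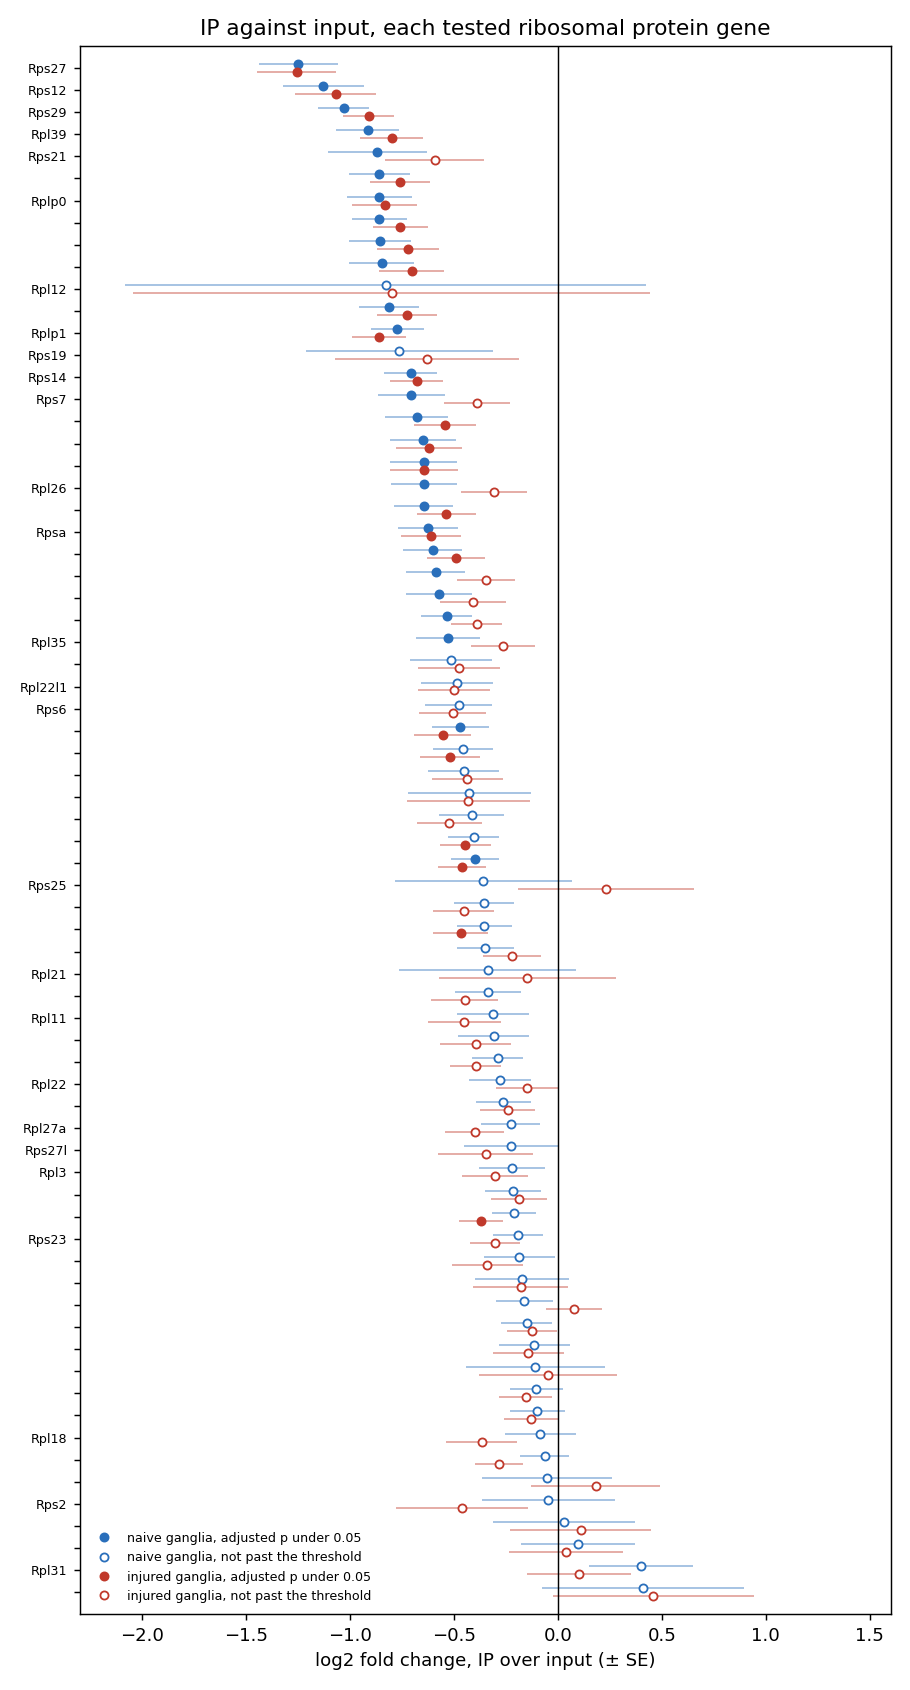
Log2 fold change of IP over input (x axis, ± SE) for each of the 70 tested ribosomal protein genes (y axis, ordered by the value in naive ganglia, with the genes named by rule labelled), in naive (blue) and injured (red) ganglia, 3 against 3 libraries. Filled points are past an adjusted p of 0.05, all of them below 0, from Rps27 at -1.25 and -1.26 upwards.

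By subunit, 16 of 31 small subunit genes (median -0.48, 0 above 0) and 11 of 39 large subunit genes (median -0.31, 4 above 0) were lower in naive IP, and the difference between subunits was not tested. The genes above 0 were Rpl7 (0.41 ± 0.48), Rpl31 (0.40 ± 0.25), Rpl38 (0.10 ± 0.28) and Rpl23a (0.03 ± 0.34), with adjusted p from 0.409 to 0.985. Their SE were 0.25 to 0.48, beside a median SE of 0.16 over the 70 genes. Rpl7 and Rpl23a rest on 4358 and 4151 counts in all, among the low totals called uncertain above. Rpl7 was at 53.8, 13.1 and 34.6 CPM in IP naive libraries, lowest in library 2, and at 63.9, 18.2 and 39.2 in IP injured libraries, again lowest in library 2. Among the 35 genes of highest mean (383 to 1715 CPM) 18 were lower (median -0.48), and among the other 35 (2.85 to 370.3) 9 were (median -0.34). The 4426 other genes between 34.6 and 1715 CPM had a median of 0.11, and 5.31% of them were lower.

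In injured ganglia the same comparison gave 24 genes lower and 0 higher, where 4.12% of all tested genes were lower and 1.66% higher. The median was -0.43, 1.35-fold lower, and 63 of 70 were below 0 (50.3% of all tested genes). Input and IP groups were apart, with IP below, for 43 of the 70 (14.7% of all genes). Without input replicate 3, 16 were lower and the median was -0.34. With 1 library left out the count was 11 without IP injured 1, 13 without IP injured 3 and 12 without input injured 3. For these smaller fits too, shares over all tested genes are not given here. In all, 20 genes were lower in naive and in injured ganglia, as were 3.11% of all tested genes. Another 7 were called in naive ganglia alone, among them Rpl35, Rps21 and Rps26, and 4 in injured ganglia alone (Rpl10a, Rps18, Rps24 and Rps27a). Of the 6 fits that left out 1 library, the call in naive ganglia stood in 0 for Rpl35, and the call in injured ganglia in 0 for Rpl10a and Rps27a, 1 for Rps18 and 2 for Rps24. The change of these differences between naive and injured ganglia was tested as an interaction, which called none of the 70. Across the 70 genes, which are not replicates, the log2 differences in naive and injured ganglia had r = 0.876. They share no library, but the naive and injured pools come from the same mice.

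The second question was whether the crush changed ribosomal protein mRNA on the ribosomes of sensory neurons. In IP 0 of the 70 were called by edgeR, beside 1.45% of all tested genes. By DESeq2 3 of the 70 were called, beside 355 genes among the 13405 with counts (3.08% if set against the 11542 tested by edgeR). By edgeR 13 had an unadjusted p under 0.05 (10.3% of all genes), all higher after injury. This count was 3 without IP injured 2, 6 without IP naive 1, 8 without IP injured 3 and 18 without IP naive 2. Shares over all tested genes in the fits with 1 library left out are not given here. Of the 70, 67 were above 0, where 50.7% of all tested genes were, and the median was 0.23 (1.17-fold) beside 0.01 over all genes. For 24 of the 70 all 3 injured libraries lay above all 3 naive libraries, as for 10.4% of all tested genes. The median over the 70 lay between 0.20 and 0.26 when any 1 library was left out, with 62 to 68 genes above 0. With the replicate number as a block, since naive and injured ganglia came from the same mice, 3 genes were called (Rpl24, Rpl35 and Rps26), beside 1.98% of all tested genes.

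Rpl35 (chromosome 2, 39001581 to 39005131), whose protein lies near the exit tunnel, was at 192, 179 and 199 CPM in IP naive and 298, 283 and 293 in IP injured libraries. The groups were apart, with a log2 difference of 0.61 ± 0.15 and an adjusted p in the edgeR quasi-likelihood test of 0.0503, or 0.018 with the block. The adjusted p of DESeq2 was 0.00643. In input it was at 248, 259 and 318 in naive and 277, 372 and 399 in injured libraries, which overlap (0.35 ± 0.15, adjusted p = 0.399). Rpl24, whose protein forms a bridge between the subunits, was at 311, 308 and 326 in IP naive and 516, 431 and 423 in IP injured libraries (0.54 ± 0.14, adjusted p = 0.0556, or 0.0334 with the block). Rps26, whose protein lies at the mRNA exit channel, was at 311, 291 and 307 and 402, 436 and 408 (0.46 ± 0.12, adjusted p = 0.0773, or 0.0422 with the block). For both, every injured IP library lay above every naive one. The largest log2 differences, those of Rpl12 (0.96 ± 1.25) and Rps19 (0.70 ± 0.45), rest on 363 and 2019 counts in all and had adjusted p of 0.925 and 0.677. The smallest were those of Rpl3 (-0.14 ± 0.16), which encodes a core protein near the peptidyl transferase centre, Rpl11 (-0.01) and Rpl21 (-0.01).

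In input, 0 of 70 genes were called after injury by edgeR, beside 1.18% of all tested genes, and 1 by DESeq2, which called 294 genes among the 13405 with counts. By edgeR 13 had an unadjusted p under 0.05 (11% of all genes), all higher. This count was 3 without input injured 3, 5 without input naive 1, 7 without input naive 2 and 25 without input naive 3. Shares over all tested genes in the fits with 1 library left out are not given here. Of the 70, 64 were above 0 (50% of all genes) and the median was 0.20 (1.15-fold). The groups were apart, injured above naive, for 12 of the 70, against 7.58% of all genes. The median ranged from 0.11 without input injured 3 to 0.30 without input naive 3, and was 0.23 without both. With the replicate block 1 gene was called, Rpl18 (log2 0.60, adjusted p = 0.0496), beside 1.78% of all genes. Rpl18, which encodes a protein of the large subunit, was at 119.8, 169.9 and 164 in input naive and 212, 242 and 228 in input injured libraries, which do not overlap (0.59 ± 0.17, adjusted p = 0.132 without the block). Rps27l was at 70.2, 75.4 and 73.7 CPM in input naive and 108, 85.4 and 151 in input injured libraries (0.65 ± 0.23, adjusted p = 0.253), and at 80.4, 112 and 78.4 in IP injured libraries (0.53 ± 0.23, adjusted p = 0.412). All injured libraries lay above all naive ones in both. The largest log2 differences in input were those of Rpl12 (0.93 ± 1.25), Rps27l and Rps2 (0.62 ± 0.32), and the smallest those of Rps25 (-0.30 ± 0.43), Rpl21 (-0.20 ± 0.43) and Rpl26 (-0.16 ± 0.16).

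Injury in IP and injury in input share no library, but IP and input came from the same mice, so they are not independent. Above 0 in both were 63 of the 70 genes, beside 31.5% of all tested genes (r = 0.613 across the 70, which are not replicates). The test of the difference between the injury effects in IP and input gave 0 of 70 and 0 at an unadjusted p under 0.05. DESeq2 also gave 0 of 70. Over all tested genes, edgeR called 0%, with 3.34% at an unadjusted p under 0.05, and DESeq2 called 16 genes among the 13405 with counts. The median of the difference was 0.02, with Rps2 (-0.42 ± 0.45), Rpl31 (-0.30 ± 0.36) and Rpl18 (-0.28 ± 0.24) lowest and Rps25 (0.59 ± 0.60), Rpl26 (0.34 ± 0.22) and Rps7 (0.31 ± 0.23) highest. Macrophage markers had a median log2 difference of 2.25 after injury in IP and 0.91 in input (1 and 0 of 6 called), with a summed CPM of 13.4 to 98.3 in IP injured and 305 to 445 in input injured libraries. Satellite glia markers had medians of 0.17 and 0.03 (1 and 0 of 7 called), Schwann cell markers 0.23 and 0.14 (0 of 7 in both) and fibroblast markers 0.30 and 0.28 (0 of 6 in both). Sensory neuron markers had medians of -0.23 and -0.35, with 2 of 16 above 0 in IP and in input, where 1 was called lower in IP, and 2 lower and 1 higher in input. The part of these markers in the values of the ribosomal protein genes was not tested.

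**Figure D4:**
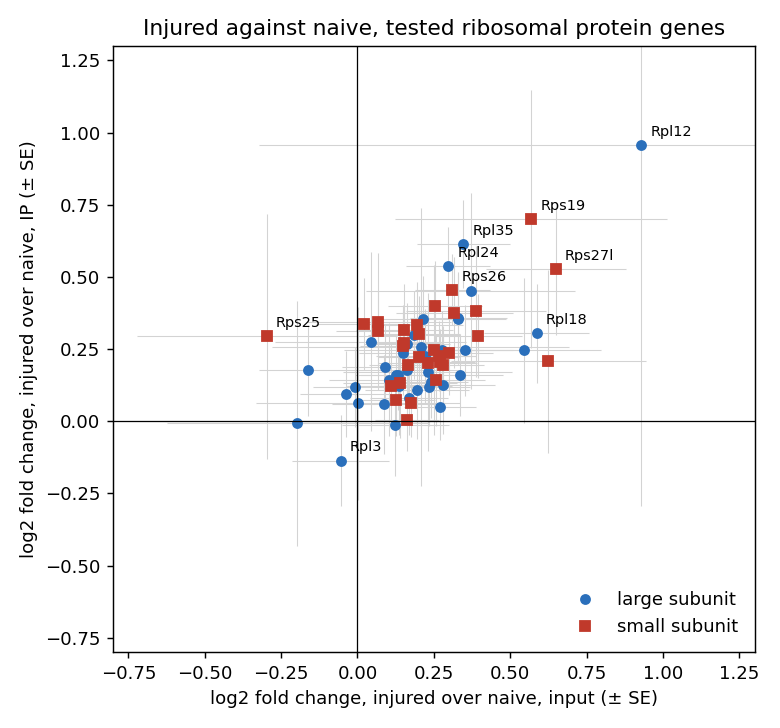
Log2 fold change of injured over naive ganglia for the 70 tested ribosomal protein genes, in input (x axis) and in IP (y axis), with grey lines for ± SE of 3 against 3 libraries and marker shape for the subunit. Of the 70 points, 63 lie above 0 on both axes and none is past an adjusted p of 0.05. The SE of Rpl12 runs past the axes.

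The use of alternative 3′ ends could be tested for 18 of the genes, those with more than 1 site past the filter. None was called in any of the 4 comparisons, where 0, 0, 0.168% and 0.0186% of 5369 genes were (in the order of injury in IP, injury in input, naive IP over input and injured IP over input, with diffSpliceDGE of edgeR). At an unadjusted p under 0.05 there were 0, 1, 4 and 2 of the 18, beside 211, 451, 493 and 238 of the 5369 genes. Rps15a came closest (adjusted p = 0.134, IP against input in naive ganglia). Its end site (chromosome 7, 118104381 to 118104406, minus strand) took 13.1% ± 3.78 of its counts in IP naive and 5.06% ± 0.63 in input naive libraries (SD, n = 3). The rest lay at -4686 bp from the annotated end (118109060 to 118109105), inside the gene. The main sites of Rpl22 lay at -1622 bp from its annotated end (chromosome 4, 152332435 to 152332460, plus strand) and at -29 bp (152334028 to 152334053). The upstream site took 45.5% ± 5.92 of the counts in IP naive, 54.3% ± 5.54 in IP injured, 62.4% ± 2.55 in input naive and 64.5% ± 3.44 in input injured libraries, and the test gave an unadjusted p of 0.0275 for IP against input in naive ganglia (adjusted p = 0.491).

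Other genes of the translation machinery were measured in the same fit. None of the 61 tested mitochondrial ribosomal protein genes was called in any comparison, and their median IP against input was 0.13 in naive ganglia and their median after injury in IP -0.06. Likewise 0 of 27 tested initiation factor genes (median IP against input 0.05 in naive ganglia, 0.23 after injury in IP) and 0 of 28 ribosome assembly genes (-0.10 and 0.06) were called. Fau, which encodes RPS30 as a fusion, was at 198, 249 and 220.3 in IP naive and 246, 247 and 298 in input naive libraries, which overlap (log2 -0.25 ± 0.15, adjusted p = 0.387). These list medians were not tested against each other.

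Among 15 tested genes outside the ribosome that are known for an oligopyrimidine start, 4 were lower in naive IP and 1 higher. The lower ones were Eef1a1, which encodes the factor that delivers tRNA to the ribosome (-0.46 ± 0.11, adjusted p = 0.0109), Tpt1 (-0.52 ± 0.10, adjusted p = 0.00235), the poly(A)-binding protein gene Pabpc1 (-1.02 ± 0.22, adjusted p = 0.00556) and Vim, an intermediate filament gene of glia and fibroblasts (-2.85 ± 0.31, adjusted p = 6.77e-06). In injured ganglia all 4 were lower as well, from -2.27 for Vim to -0.41 for Eef1a1. The histone chaperone gene Nap1l1 was higher (0.74 ± 0.20, adjusted p = 0.0334). After injury 1 of the 15 rose, Eef1b2, which encodes the exchange factor of the tRNA delivery factor. It was at 393, 429 and 383 in IP naive and 631, 813 and 681 in IP injured libraries (log2 0.82 ± 0.13, adjusted p = 0.000545), and at 485, 519 and 532 in input naive and 825, 827 and 949 in input injured libraries (0.76 ± 0.12, adjusted p = 0.00165). Naive and injured libraries were apart in both. Of 28 mTOR pathway genes 0 were called after injury. In naive IP the mTOR inhibitor gene Ddit4 was lower (-1.02 ± 0.19, adjusted p = 0.00168, and -1.16 in injured ganglia) and the inhibitor gene Deptor was higher (0.54 ± 0.16, adjusted p = 0.0435).

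**Figure D5:**
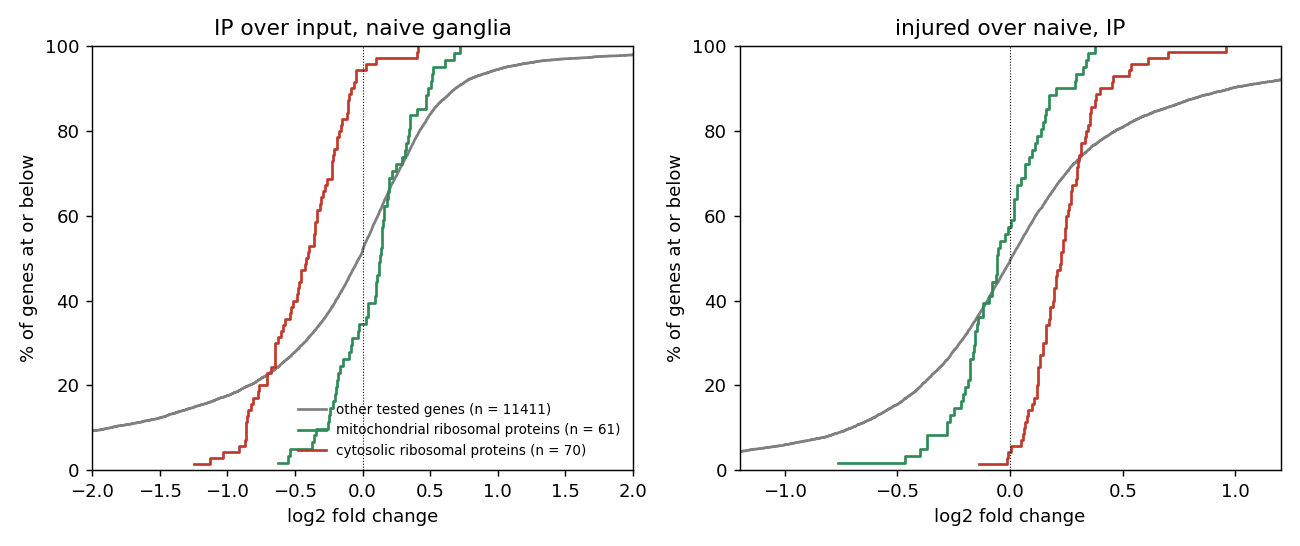
Cumulative percent of genes (y axis) at or below a log2 fold change (x axis) for IP over input in naive ganglia (left) and injured over naive in IP (right), for 70 cytosolic ribosomal protein genes, 61 mitochondrial ribosomal protein genes and the other tested genes. The curve of the cytosolic genes lies to the left of 0 for 66 of 70 genes on the left and to the right of 0 for 67 of 70 on the right.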

How the data were processed

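The data are raw counts, not normalized, of QuantSeq REV reads (3′ ends of polyadenylated RNA) at genomic sites in 12 libraries, as the authors deposited them. Tools named in the submitters' processing notes are STAR, HTSeq and bcl2fastq 2.17, with builds GRCm38 and mm10. The calling of sites and the handling of multiply mapped reads are not given in the sources used here. Of 178451 lines, 20 were damaged and left out, and 17 unnamed columns were not used. The first chromosome block was read as the minus strand and the second as the plus strand. Gene strands came from the RefSeq start table (GRCm38.p6) or, for 19 of the 71 genes, from the counts, a reading that gave the table's strand for 99.9% of 7972 genes at 3′ ends.

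Gene sums were tested with edgeR 4.0.16 (R 4.3.3), all 12 libraries in 1 quasi-likelihood fit with TMM factors, filterByExpr and Benjamini-Hochberg adjustment over 11542 genes, threshold 0.05. Errors of log2 differences are SE, others SD. DESeq2 1.42.0, run on all genes with counts and with its own filter, was an alternative, and diffSpliceDGE tested site use. Figures were drawn with matplotlib 3.10.9, and tests were checked on simulated data. Replicate libraries were pools, and p-values measure the spread between these pools. Counts of any pair of libraries in a group differed by more than sampling noise. Injured and naive ganglia came from each mouse, so replicate numbers were taken to pair the pools. Deviations of same-numbered naive and injured libraries correlated at 0.289, 0.421 and 0.172 in IP and 0.152, 0.265 and 0.455 in input over 4610 genes. For input replicate 1 the value of 0.152 was below 0.155 with another number. Between IP and input not all pairs were over 0.1: replicate 1 was at -0.012 in naive and -0.003 in injured ganglia, below 0.061 and 0.051 with another number.

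Genes named are Rpl22, Rplp0, Rplp1, Rpsa, Rps6, the 5 of highest mean, paralogue pairs with counts, and in each comparison those past the threshold (beyond 10, the 5 largest in each direction) or, with none past it, the 3 largest and 3 smallest, with up to 4 called genes of each list. Rpl24, Rps26, Rpl18, Rpl7, Rpl31, Rpl38, Rpl23a, Fau, Nap1l1 the pseudogenes and the genes listed by name in a count were named after their values were seen. Alternatives were other scalings, filters, site rules and fits, the replicate block and leaving out single libraries. Members and lists were chosen with earlier results of these data known. A few genes are not reported here by name.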

Additional observations from a re-analysis of the deposited data

How the results depend on the processing

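Direction held throughout: the median over the genes kept its sign in all 4 comparisons of IP with input and of injured with naive, under every alternative run. Calls after injury in IP, 0 in the main test, became 3 with DESeq2, 1 with no filter on low counts, 2 when only the groups compared were fitted, 1 with genes ending at their annotated 3′ end, 3 with the replicate block and 9 with the block in a fit of only the groups compared. In input they became 1 with DESeq2, 1 with the block and 5 with the block in a fit of the groups compared. The last fit and those without input replicate 3 were chosen after seeing the data. Genes lower in IP in naive ganglia, 27, became 16 with only sites at the annotated 3′ end and 16 to 25 with 1 library left out (16 without IP naive 3, 17 without input naive 3), and 15 of the 27 were called in all of those 6 fits. In injured ganglia the 24 became 14 with only sites at the annotated 3′ end, 15 with all sites tied to a gene and 11 to 22 with 1 library left out (11, 13 and 12 without IP injured 1, IP injured 3 and input injured 3), and 11 of the 24 were called in all 6. With the block 32 genes were lower in naive and 32 in injured ganglia. Over all tested genes, the block called 1.98% after injury in IP and 1.78% in input, beside 1.45% and 1.18% in the main test. Shares over all tested genes under the other settings, and with the block between IP and input, are not given here. Changes in these counts are therefore not read as particular to the ribosomal protein genes. Injury comparisons gave 0 calls with any 1 library left out. The interaction and site use gave 0 under all alternatives. The summed share as a percent of all counts of a library was 1.73% in IP naive, 1.98% in IP injured, 2.34% in input naive and 2.51% in input injured libraries. With only sites at the annotated 3′ end it was 2.44% in IP naive and 2.73% in IP injured libraries, and with all tied sites 2.13% and 2.40%. Input values under these site rules are not given here, so no statement on IP against input is made for them. With 1 library left out it was 2.22% to 2.24%, 2.49% to 2.54%, 3.10% to 3.44% and 3.48% to 3.83% in the 4 groups. Some of these fits used fewer libraries or sites, and the causes of the changes were not tested. Genes with few counts, such as Rpl12 (SE of 1.25 on the log2 scale), allow no statement on small differences.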

Other observations

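Processed pseudogenes carry sequence close to that of ribosomal protein mRNAs, and reads can match both. Of 321 pseudogenes named after genes of the rule, 6 had counts, 97210 in all, which is 2.70% of the counts of the 71 genes. Rps7-ps3 held 57528 counts beside 55348 at Rps7, and both had nearly the same values in IP naive libraries, 303, 396 and 320.1 CPM for the pseudogene and 296, 377 and 311 for Rps7. The log2 difference between IP and input in naive ganglia was -0.72 ± 0.17 for Rps7-ps3 (adjusted p = 0.0109) and -0.71 ± 0.16 for Rps7 (adjusted p = 0.00934), so the values of Rps7 are uncertain. Rpl34 itself was not analysed here, and Rpl34-ps1 was at 143, 139.6 and 155 in IP naive and 227, 304 and 275 in input naive libraries (log2 -0.88 ± 0.16, adjusted p = 0.00146, edgeR quasi-likelihood test). Rps24-ps3 had a log2 difference of -0.71 ± 0.19, adjusted p = 0.0262, beside -0.41 ± 0.12, adjusted p = 0.0519 for Rps24.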
